A study of Bos taurus with 16 samples.

Results

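Genes known from myeloid cells were followed through brush samples of the bovine endometrium, 7 in all: PSTPIP2, CTSC, PLEK, AIF1, LAPTM5, CYBB and G0S2. They were picked from the comparisons of these same endometrium samples, so their levels there are a description, given with no p. All probe sets named for exactly 1 of the 7 genes were taken, which gave 9 of the 24128 probe sets on the array and 7 of the 9155 genes with a probe set of a single name. CYBB and PLEK have 2 probe sets each. A probe set was kept where its signal was above 4 on the log2 scale in at least 2 endometrium pools. That left 8 of the 9, among 13421 probe sets kept in all, and the one left out, the lesser probe set of PLEK, read between 2.07 and 2.17 in every endometrium pool.

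The samples came from 49 superovulated cows. A cytobrush was taken from the endometrium 2 h ahead of insemination (day 0) and a further one ahead of the flushing of embryos (day 7). Animals were called healthy (HE) where 0 polymorphonuclear cells were found on the brush, and SE, for subclinical endometritis, a uterine inflammation that causes no visible disease, where any were found. Endometrium was measured in 3 HE and 3 SE pools on day 0 and in 2 HE and 3 SE pools on day 7, and blastocysts flushed on day 7 in 2 HE and 3 SE pools of 10 embryos each. Each array shows a pooled sample, with RNA amplified in 2 rounds, so all errors and p-values reflect the spread between pools, not between cows. All values are log2 signals of Affymetrix bovine arrays.

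Myeloid cells are the white blood cells of the neutrophil, monocyte, macrophage and dendritic cell lines. In the uterus, neutrophils enter the lumen after calving and around oestrus and clear bacteria with granule proteases and an oxidative burst, while macrophages live in the tissue below the epithelium. The 7 genes cover several of these tasks. PSTPIP2 is an F-BAR adaptor that links membranes to the actin skeleton and restrains macrophage inflammation, and PLEK (pleckstrin) is the protein kinase C substrate of platelets and leukocytes. CTSC (cathepsin C) is the dipeptidyl peptidase that activates the granule serine proteases of neutrophils, and CYBB is the catalytic subunit of the phagocyte NADPH oxidase. LAPTM5 is a lysosomal membrane protein of blood cells, AIF1 (also called IBA1) is a calcium-binding protein used as a macrophage marker, and G0S2 is an inhibitor of the triglyceride lipase PNPLA2. On the bovine assembly in RefSeq they lie on different chromosomes: LAPTM5 on 2, PLEK on 11, G0S2 on 16, AIF1 on 23, PSTPIP2 on 24, CTSC on 29 and CYBB on X.

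Across the 11 endometrium arrays the median signal ran from 4.18 to 4.30. SE replicate 2 of day 0 stood apart, with a mean correlation of 0.961 to the other day 0 arrays against 0.975 to 0.979 for the rest. Its GAPDH control signal was 0.578 higher at the 3′ than at the 5′ end, against 0.026 to 0.141 in the other day 0 pools. The same 3′ to 5′ gap of the EIF4E control, a measure of RNA and amplification quality, was larger in every SE pool than in every HE pool, at 3.88 to 4.27 against 3.70 to 3.85 on day 0 and at 4.05 to 4.52 against 3.67 and 3.91 on day 7. The EIF4E gap thus moved with disease status in the endometrium comparisons of both days, and its part in them was not tested. The gaps of the GAPDH and cyclophilin controls overlapped between HE and SE on both days. Epithelial cells, which line the uterine lumen, were well represented, with 13 of 15 epithelial markers kept at a list mean of 9.63 to 11.29. Of 11 endothelial markers 1 was kept, and haemoglobin genes were not.

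**Figure D1:**
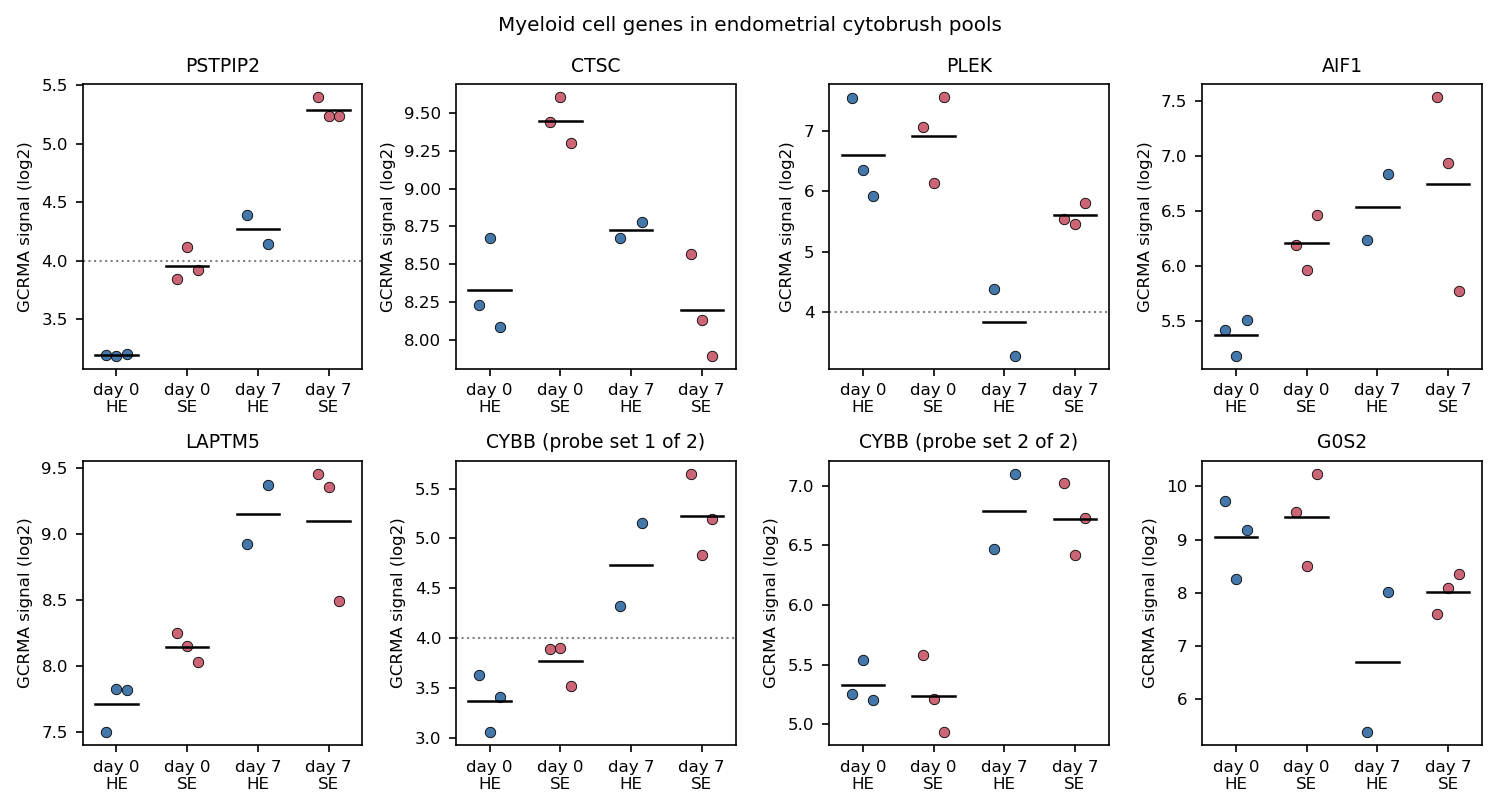
Log2 signal of each kept probe set in every endometrium pool (1 point a pool; blue HE, red SE; black bar, group mean; dotted line, the filter at 4, where it falls on the axis). PSTPIP2 steps up from day 0 HE to day 7 SE, CTSC is highest in day 0 SE, and PLEK and G0S2 are highest on day 0. By group mean AIF1, LAPTM5 and CYBB are highest on day 7, with AIF1 overlapping between the days in SE.

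PSTPIP2 separated all 4 groups. It read 3.20, 3.19 and 3.21 in the HE pools of day 0, below the filter in each, and 3.84, 4.11 and 3.92 in the SE pools. On day 7 it read 4.39 and 4.15 in the HE pools and 5.39, 5.24 and 5.23 in the SE pools. The 4 groups did not overlap, and the order was day 0 HE, day 0 SE, day 7 HE and day 7 SE. SE was higher than HE by 0.76 (standard error 0.13) on day 0 and by 1.02 (standard error 0.15) on day 7, and day 7 was higher than day 0 by 1.07 in HE and by 1.33 in SE. All day 0 HE pools and 2 of the 3 day 0 SE pools lie below the filter, so the differences that start from day 0 are uncertain in size. In these bulk samples, fewer cells of a type and less RNA per cell cannot be told apart.

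CTSC took the opposite order on the 2 days. The HE pools of day 0 read 8.23, 8.67 and 8.08 and the SE pools 9.44, 9.60 and 9.30. On day 7 the HE pools read 8.67 and 8.78, while the SE pools read 8.57, 8.13 and 7.89. Every SE pool was thus above every HE pool at insemination and below every HE pool at flushing. SE minus HE was 1.12 (standard error 0.21) on day 0 and -0.53 (standard error 0.23) on day 7. From day 0 to day 7 CTSC was higher by 0.40 in HE, where the pools of the 2 days touched at 8.67, and lower by 1.25 in SE. Day 0 SE was the highest group and stood clear of the other 3, of which day 0 HE and both day 7 groups lay within 0.53 of each other by their means.

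PLEK and G0S2 shared another course, high on day 0 and lower on day 7. PLEK read 7.56, 6.36 and 5.92 in the day 0 HE pools and 7.06, 6.14 and 7.56 in the SE pools, which overlap. On day 7 it read 4.38 and 3.28 in HE, the lowest levels of the 11 pools, and 5.54, 5.47 and 5.81 in SE. Its SE minus HE difference was 0.31 (standard error 0.47) on day 0 and 1.78 (standard error 0.53) on day 7, where the pools did not overlap. From day 0 to day 7 it was lower by 2.78 in HE and by 1.31 in SE.

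G0S2 read 9.73, 8.26 and 9.17 in the day 0 HE pools and 9.52, 8.50 and 10.24 in the SE pools. The day 7 HE pools lay far apart, at 5.38 and 8.02, and the SE pools read 7.60, 8.09 and 8.35, so HE and SE overlapped on both days. SE minus HE was 0.37 (standard error 0.66) on day 0 and 1.32 (standard error 0.74) on day 7, and the latter was -0.002 without HE replicate 1. Day 7 was lower than day 0 by 2.36 in HE (by 1.04 without day 7 HE replicate 1) and by 1.40 in SE. The day 7 pools lay below the day 0 pools within HE and within SE, though the highest day 7 pool (8.35, in SE) was above the lowest day 0 pool (8.26, in HE).

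Within day 0, the pools high in PLEK and G0S2 were the same ones. HE replicate 1, SE replicate 1 and SE replicate 3 were the 3 highest pools in both genes. The same 3 pools were the highest in CXCR1, the neutrophil receptor for interleukin-8, which read 6.48, 2.49 and 2.90 in HE and 8.16, 3.09 and 7.62 in SE. They were also the highest in SRGN (serglycin), the proteoglycan of leukocyte granules, at 10.09, 7.31 and 7.82 in HE and 11.04, 8.88 and 10.78 in SE. HE replicate 1 thus carried CXCR1 signal above the filter although its cows were grouped as free of polymorphonuclear cells, and SE replicate 2 read below the filter. On day 7 CXCR1 read 3.57 and 2.62 in HE and 3.62, 5.13 and 3.89 in SE, so that 1 of the 5 pools was above the filter. Other leukocyte markers were divided on day 0. TYROBP and NCF1 were highest in the same 3 pools, as was TNFAIP6, which lay below the filter in 5 of the 6 day 0 pools. The mean of the neutrophil list was too, but that list itself holds CXCR1, NCF1 and TNFAIP6. PTAFR, C1QB and LCP2 were highest in the 3 SE pools. CD52, ITGB2, CD83 and ALOX5AP (below the filter in all 6) were highest in other sets of 3. CD14 and CD53 were instead highest in SE replicate 2 (9.99 and 9.70), followed by HE replicate 2 (8.01 and 8.59). The summed signal of the neutrophil list was also highest in these replicates, at 14.63 and 13.95. Without HE replicate 1 the day 0 difference of PLEK was 0.78 and that of G0S2 was 0.70. Without SE replicate 2 they were 0.70 and 0.82, while without SE replicate 3 they were -0.01 and -0.04. Without HE replicate 1 or without SE replicate 2, PSTPIP2 differed by 0.76 or 0.68, CTSC by 1.07 or 1.04, AIF1 by 0.86 or 0.96 and LAPTM5 by 0.32 or 0.43. The CYBB probe sets then differed by 0.54 or 0.34 and by -0.13 or -0.08. None of these 5 genes ranked the day 0 pools as PLEK and G0S2 did.

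AIF1 and LAPTM5 were lowest in day 0 HE. AIF1 read 5.42, 5.19 and 5.51 in the day 0 HE pools and 6.19, 5.97 and 6.47 in the SE pools, with no overlap and a difference of 0.84 (standard error 0.38). On day 7 it read 6.24 and 6.83 in HE and 7.53, 6.94 and 5.77 in SE, which overlap (0.21, standard error 0.42). LAPTM5 read 7.50, 7.83 and 7.82 in the day 0 HE pools and 8.25, 8.15 and 8.03 in the SE pools, again with no overlap (0.43, standard error 0.25). Its day 7 pools read 8.93 and 9.37 in HE and 9.46, 9.36 and 8.49 in SE, so that the HE and SE means differed by -0.05 (standard error 0.28). Day 7 was higher than day 0 by 1.16 (AIF1) and 1.44 (LAPTM5) in HE and by 0.54 and 0.96 in SE. In SE the AIF1 pools of the 2 days overlapped, since 1 day 7 pool (5.77) lay below every day 0 SE pool.

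On day 7 a single pool held the low end of both genes. SE replicate 3 was the lowest of the 5 day 7 pools in AIF1 and in LAPTM5, and SE replicate 1 the highest. Without SE replicate 3 the day 7 difference of AIF1 was 0.70 and that of LAPTM5 was 0.26, and the change of AIF1 from day 0 to day 7 in SE was 1.03. The order of these pools recurred in the leukocyte marker lists: SE replicate 3 was the lowest and SE replicate 1 the highest day 7 pool by the mean of the macrophage list (5.15 and 6.26), of the pan-leukocyte list (7.34 and 8.34) and of the lymphocyte list (5.69 and 7.16). It was not confined to leukocyte genes, since the stromal list (7.37 and 9.11) had the same lowest and highest pools. So did the actin list around PSTPIP2 (8.81 and 9.27), which itself holds leukocyte genes such as CORO1A and LCP1.

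CYBB followed the day rather than the disease. Its lower-reading probe set gave 3.63, 3.06 and 3.41 in the day 0 HE pools and 3.89, 3.90 and 3.52 in the SE pools, all below the filter. On day 7 it read 4.32 and 5.16 in HE and 5.65, 4.83 and 5.20 in SE. The other probe set read 5.25, 5.54 and 5.21 in the day 0 HE pools, 5.58, 5.21 and 4.93 in the SE pools, 6.47 and 7.10 in day 7 HE and 7.02, 6.42 and 6.73 in day 7 SE. Every day 7 pool lay above every day 0 pool in both probe sets, and HE and SE overlapped on each day. The change from day 0 to day 7 was 1.37 and 1.45 in HE and 1.46 and 1.48 in SE. That of the lower-reading probe set starts from a level not above the filter, so its size is uncertain. The SE minus HE differences of the 2 probe sets disagreed in sign, at 0.41 and -0.09 on day 0 and at 0.49 and -0.06 on day 7, with standard errors of 0.23 to 0.31.

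**Figure D2:**
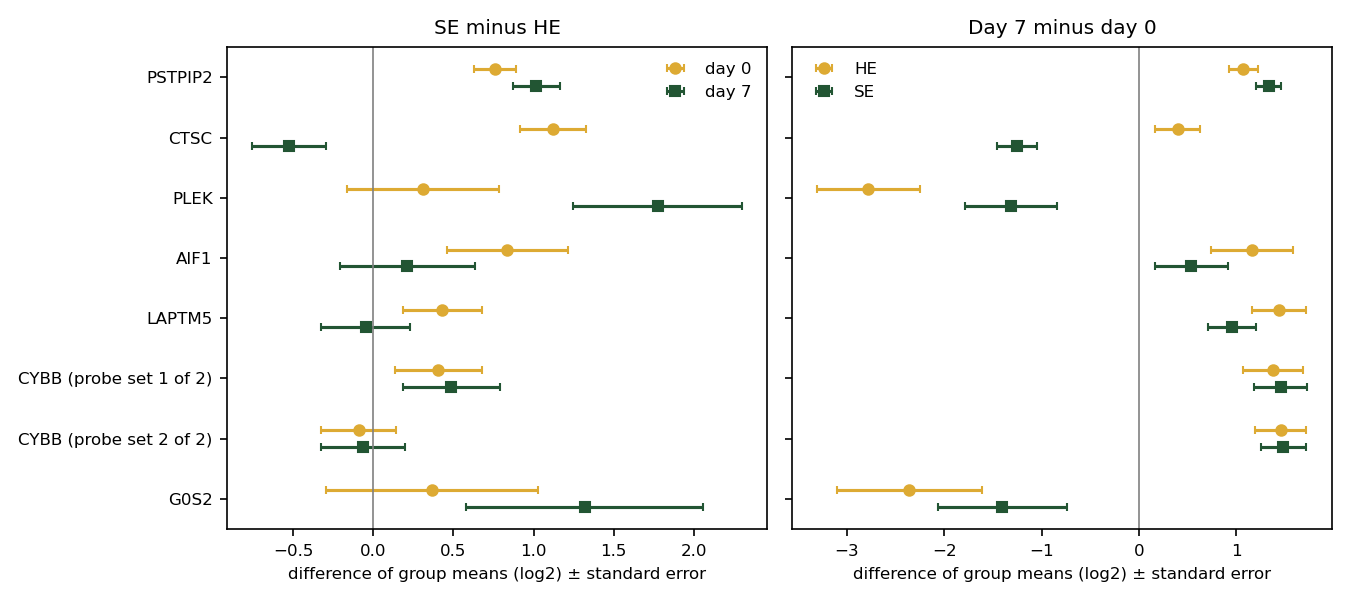
Differences of group means (log2) with limma's standard error for the 8 kept probe sets; left, SE minus HE on day 0 and day 7; right, day 7 minus day 0 in HE and SE. CTSC lies at 1.12 on day 0 and -0.53 on day 7; from day 0 to day 7 PLEK and G0S2 lie left of 0 in both groups, and PSTPIP2, AIF1, LAPTM5 and CYBB right of it.

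Counted over the 8 kept probe sets, limma's test with Benjamini-Hochberg adjustment called 0 between SE and HE on day 0, where 0.0224% of all kept probe sets were called (3, with 1020 at an unadjusted p under 0.05), and 0 on day 7, where 0% were (477 at an unadjusted p under 0.05). HE and SE pools did not overlap on day 0 in 4 of the 8, all higher in SE (PSTPIP2, CTSC, AIF1 and LAPTM5), against 12.8% of all kept probe sets. On day 7 they did not overlap in 3 of the 8, with PSTPIP2 and PLEK higher and CTSC lower in SE, against 16.3%. Because the genes were selected on these values, nothing is read from those counts.

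Between the days, 7 of the 8 probe sets were called in HE, 5 higher and 2 lower on day 7, the exception being CTSC, against 45% of all kept probe sets. In SE 6 were called, 4 higher (PSTPIP2, LAPTM5 and both of CYBB) and 2 lower (CTSC and PLEK), against 50.1%. The pools of the 2 days did not overlap in 7 of the 8 in HE and in 7 of the 8 in SE, against 68.4% and 57.9% of all kept probe sets. As above, nothing is read from these counts, since the genes were selected on these values. Several of the calls also changed with single pools or settings. That of AIF1 in HE held in 7 of 18 alternative settings and that of G0S2 in HE in 12. That of PLEK in SE held in 11, and that of the lower CYBB probe set in HE was lost without day 7 HE replicate 2. The calls of PSTPIP2 on both sides, of PLEK in HE, of CTSC in SE, of LAPTM5 and of the other CYBB probe set held in all 18. These settings refit the arrays on which the genes were selected, so a call that held lends them no support.

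Markers of the cell types that could carry these genes were then set beside them, none of the markers being among the 7 genes. Of 20 neutrophil markers named on the array 6 were kept: CXCR1, LTF, ALOX5AP, NCF1, TNFAIP6 and PTAFR. The myeloperoxidase gene MPO (at most 2.27), the elastase gene ELANE (1.96), the integrin gene ITGAM (2.68) and the cathelicidin genes CATHL1, CATHL2 and CATHL4 (2.13, 2.78 and 2.20) stayed below the filter in every pool. Of 19 macrophage and dendritic cell markers 11 were kept, among them CD14, CD68, CSF1R, the 3 C1q chains and TYROBP. Of 16 pan-leukocyte genes 14 were kept. No gene of these lists was called between SE and HE on either day.

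On day 0 the myeloid lists stood higher in SE without any call. The median difference was 0.76 over the 6 neutrophil genes, all of them higher in SE, and 0.46 over the 11 macrophage genes, 9 of them higher, against -0.06 over all kept probe sets. In the neutrophil list, ALOX5AP lay below the filter in all 6 day 0 pools, TNFAIP6 in 5, CXCR1 in 3 and PTAFR in 2. In the macrophage list, CSF1R, C1QC and FCER1G did so in all 6, and CD68 and MPEG1 in 4. The day 0 counts, medians and means of these lists thus rest partly on values below the filter. With no filter, over all genes of these lists named on the array, the medians were 0.02 and 0.27. The largest differences were those of CXCR1 (2.33, standard error 1.35) and of PTAFR, the receptor for platelet-activating factor (1.31, standard error 0.24), in the first list. In the other they were those of the endotoxin receptor CD14 (0.81, standard error 0.68) and of the immune adaptor TYROBP (0.80, standard error 0.38). The CD14 difference rests on SE replicate 2 (9.99), since the other SE pools read 6.93 and 7.67 against 6.95 to 8.01 in HE. By list mean, the macrophage genes did not overlap between HE (5.08 to 5.31) and SE (5.54 to 5.66), and the neutrophil genes did (up to 5.79 in HE and from 5.53 to 6.86 in SE). The logarithm of the summed signal ran from 9.63 to 9.79 in HE and from 9.92 to 10.61 in SE for the macrophage list, and from 13.21 to 13.95 and from 13.59 to 14.63 for the neutrophil list. The neutrophil sum is nearly all LTF, which alone read 13.19 to 14.62 over the day 0 pools, so it does not stand for the other markers. Polymorphonuclear cells are what defined SE in the first place, so higher myeloid signal in SE is not independent of the grouping. Markers of other cells moved with it: 6 of 6 ciliated cell markers were higher in SE on day 0 (median 1.09, summed signal 10.61 to 12.20 against 9.26 to 10.50), as were 11 of 12 stromal markers (median 0.67, summed signal 13.35 to 13.85 against 11.90 to 13.31). The stromal median was 0.29 without HE replicate 2, 0.35 without SE replicate 1, 1.11 without HE replicate 3 and 1.04 without SE replicate 2, and the ciliated median 0.57 without SE replicate 2. The part of this shift in the differences of the 7 genes was not tested.

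On day 7 the median SE minus HE difference was 0.44 over the neutrophil list, with 5 of 6 genes higher, and 0.08 over the macrophage list, with 7 of 11 higher, against 0.003 over all kept probe sets. The neutrophil median was 0.20 without SE replicate 2, 0.73 without SE replicate 3 and 0.02 with no filter. The macrophage median changed sign with single pools left out, to -0.41 without HE replicate 1 and to -0.34 without SE replicate 1. The summed signal of the neutrophil list, again nearly all LTF (11.75 to 13.79 over the day 7 pools), ran from 13.30 to 13.69 in HE and from 11.87 to 13.83 in SE. That of the macrophage list ran from 9.68 to 10.41 and from 9.53 to 10.75. All 13 epithelial markers were lower in SE (median -0.27), at a list mean of 9.63 to 9.73 against 9.97 to 10.00 in HE.

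**Figure D3:**
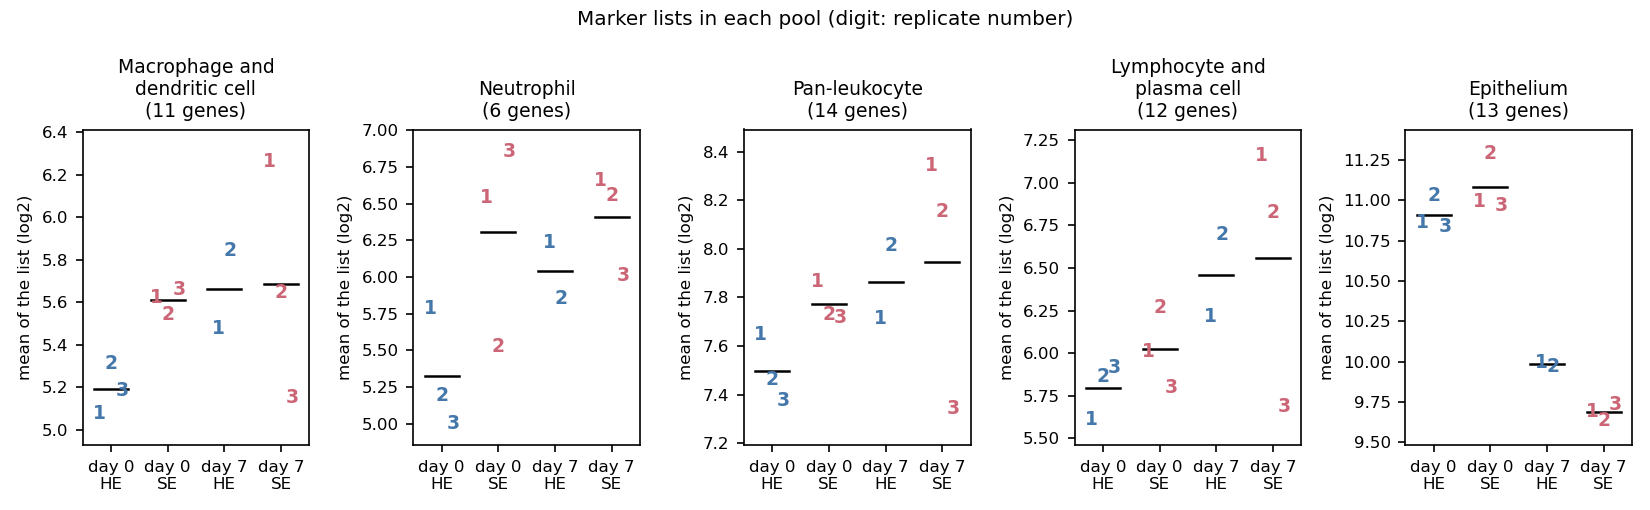
Mean log2 signal of 5 marker lists in every endometrium pool (digit, replicate number; blue HE, red SE; black bar, group mean; the number of genes averaged stands above each panel). The macrophage list does not overlap between HE and SE on day 0, SE replicate 3 is the lowest day 7 pool in the macrophage, pan-leukocyte and lymphocyte lists, and the epithelial list is lower on day 7 in every pool.

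From day 0 to day 7 genes of the myeloid lists changed in both directions. Of 34 genes in the macrophage, neutrophil, pan-leukocyte and oxidase lists, 11 rose and 4 fell in HE and 9 rose and 6 fell in SE, so that 15 of 34 were called in each, near the 45% and 50.1% of all kept probe sets. The rises numbered 4 in HE without day 7 HE replicate 2, and in SE 15 without day 7 SE replicate 3 and 5 without day 0 SE replicate 1, day 7 SE replicate 1 or day 7 SE replicate 2. The falls numbered 1 in HE without day 7 HE replicate 1, and 3 in SE without day 0 SE replicate 1 or day 7 SE replicate 3. C1QB, a chain of the complement component C1q made by tissue macrophages, rose by 2.09 in HE (limma adjusted p = 0.0115) and by 1.47 in SE (limma adjusted p = 0.0311). It read 4.40, 5.45 and 4.88 in day 0 HE, 5.71, 5.46 and 5.57 in day 0 SE, 6.95 and 7.06 in day 7 HE and 8.19, 7.15 and 5.80 in day 7 SE, where SE replicate 3 again was the lowest. The leukocyte integrin chain ITGB2 rose by 1.19 and 1.13, the T cell and myeloid adaptor LCP2 by 1.65 and 1.03, and the surface antigen CD52 by 1.49 and 1.19. TNFAIP6, a hyaluronan-binding protein induced by inflammation, rose by 3.69 and 3.82, and ALOX5AP, which serves leukotriene synthesis, by 1.47 and 1.87. TNFAIP6 was below the filter in 5 of the 6 day 0 pools and ALOX5AP in all 6, so the sizes of these changes are uncertain.

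In the other direction, CD14 fell by 2.41 in HE and by 3.99 in SE (limma adjusted p = 0.0266 and 0.000836). It read 6.95, 8.01 and 7.22 in day 0 HE, 6.93, 9.99 and 7.67 in day 0 SE, 5.18 and 4.79 in day 7 HE and 4.99, 4.05 and 3.59 in day 7 SE, with no overlap between the days. CD83, a marker of mature dendritic cells, fell by 3.28 and 2.87. In SE, PTAFR and the iron-binding secretory protein LTF were also called, at -1.76 and -1.30 (PTAFR with all 5 day 7 pools below the filter), but limma's interaction of status and day called 0 of the 13421 probe sets (526 at an unadjusted p under 0.05). Between the days 6 genes of the macrophage list were called in HE, 4 up and 2 down, and 3 in SE, 1 up and 2 down. In the neutrophil list 2 rose in HE, and in SE 2 rose and 2 fell. In the pan-leukocyte list 5 rose in both groups, while 2 fell in HE and 1 in SE. Markers of other cells were called as well, where 45% of all kept probe sets were called in HE and 50.1% in SE. Of 12 lymphocyte genes 4 rose and 1 fell in HE (41.7% called), and 7 rose and 1 fell in SE (66.7%), the rises led by CD3E and ZAP70. Of 13 epithelial genes 2 rose and 7 fell in HE (69.2%), and 2 rose and 11 fell in SE (100%). The part of a changed mix of cells in the course of the 7 genes was not tested.

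**Figure D4:**
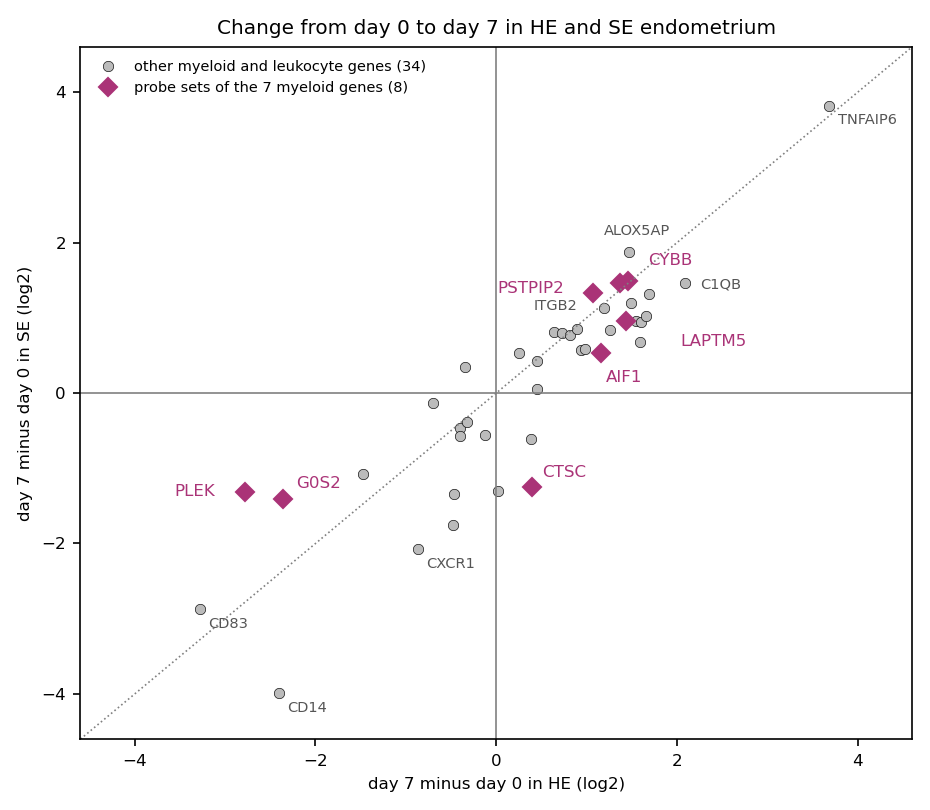
Change from day 0 to day 7 in HE (horizontal) against SE (vertical), both log2, for the 8 kept probe sets of the 7 genes (diamonds) and 34 other myeloid and leukocyte genes (grey); dotted line, equal change. PLEK and G0S2 lie in the lower left with CD14 and CD83, CTSC lies to the right of 0 in HE and below 0 in SE, and the others lie in the upper right with C1QB, ALOX5AP and ITGB2.

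The partners of each gene were followed by lists of their own. CYBB works in the oxidase with CYBA, NCF1, RAC1 and RAC2 and needs the chaperone CYBC1, and these 5 were kept. Between the days 0 were called in HE, while in SE CYBC1 rose by 0.80 and the GTPase RAC1 fell by 0.39. NCF1, the cytosolic organiser of the oxidase, had the largest status difference of the list on day 0 (0.67, standard error 0.38), which did not pass the test. Over the 5 genes the median change between the days was -0.13 in HE and -0.39 in SE (-0.17 in SE with no filter), beside changes of 1.37 to 1.48 in the CYBB probe sets.

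Around CTSC, 12 genes of lysosomal cathepsins and their cystatin inhibitors were kept. Between the days 1 rose and 7 fell in HE, and 1 rose and 7 fell in SE, with a median of -1.09 and -0.87 (-0.60 and -0.52 with no filter), where 45% and 50.1% of all kept probe sets were called. The same background holds for the partner lists that follow. The aminopeptidase cathepsin H (CTSH) fell by 5.03 in HE and by 4.42 in SE, the inhibitor cystatin M (CST6) by 4.02 and 3.68, and cathepsin Z (CTSZ) by 2.09 and 2.10. Cathepsin F (CTSF) rose by 1.85 and 2.06. CTSC itself was lower on day 7 in SE but higher by 0.40 in HE, the side on which 2 of the 12 other genes stood. No gene of the list was called between SE and HE on day 0, where the largest differences were those of CTSK (0.59) and LGMN (-0.55).

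Of the actin list around PSTPIP2, which holds F-BAR adaptors, partners of the WASP pathway and leukocyte actin regulators, 12 genes were kept. In HE 5 rose and 5 fell, and in SE 3 rose and 5 fell. FERMT3, the kindlin of blood cells, rose by 1.42 in HE (from below the filter in 5 of the 6 day 0 pools), CORO1A, the coronin of leukocytes, by 1.26 in HE and 0.84 in SE, and the capping protein CAPG by 0.97 and 0.95. The phosphatases PTPN12 and PTPN18, of the family that binds PSTPIP proteins, fell by 1.17 and 1.13 in HE and by 1.10 and 1.39 in SE, and the actin-binding profilin PFN1 by 1.04 and 1.01. Around LAPTM5, 8 genes of lysosomal membrane proteins were kept. The tetraspanin CD63 fell by 0.86 and 0.77, and in SE LAPTM4B, a relative of LAPTM5, and the calcium channel MCOLN1 rose by 0.59 and 0.72. The other genes of this list were not called.

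PLEK has partners among protein kinase C and phosphoinositide enzymes, of which 5 were kept and all were called between the days in both groups, against 45% and 50.1% of all kept probe sets. PRKCQ, the kinase C isoform of T cells, rose by 4.12 in HE and 4.08 in SE, PRKCB by 1.69 and 1.21 and the phospholipase PLCG1 by 1.17 and 1.52. PRKCQ was below the filter in 5 of the 6 day 0 pools and PRKCB in 3. PLEK2, a relative of PLEK, fell by 3.51 and 2.77, and PRKCD by 1.08 and 1.13. For G0S2, 6 genes of lipolysis and lipid droplets were kept. Its target PNPLA2, the lipase that starts triglyceride breakdown, rose by 1.46 in HE and by 1.71 in SE (limma adjusted p = 0.00137 and 0.000201) while G0S2 was lower by 2.36 and 1.40. The triglyceride synthase DGAT2 rose by 5.52 and 6.48 (with 3 of the 6 day 0 pools below the filter) and the droplet coat protein PLIN2 by 1.81 and 2.02, and PLIN3 fell by 1.71 and 1.84. No gene of these lists was called between SE and HE on either day, where DGAT2 differed most on day 7 (0.96, standard error 0.33).

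The genes with the most similar course over the 11 pools were found by the root-mean-square distance between log2 profiles, each centred on its own mean, among kept probe sets with a single name. For LAPTM5 they were LOC530031 (0.18), LCP2 (0.19) and LOC510988 (0.20), against an SD of LAPTM5 over the pools of 0.70. For AIF1 they were RGS10 (0.23), GMFG (0.23) and WIPF1 (0.24), against an SD of 0.72, and for PSTPIP2 LYZ2 (0.28), MPC1 (0.29) and RNF7 (0.29), against 0.83. LYZ2, a lysozyme, stood at 7.12 in day 0 HE, 8.46 in day 0 SE, 8.47 in day 7 HE and 9.48 in day 7 SE. The nearest genes to CYBB, by the brighter probe set, were BRMS1L (0.14), ENPP5 (0.16) and GOLGA5 (0.18), against 0.81. For CTSC, TSPAN3 (0.31), CMTM3 (0.31) and S100A13 (0.31) were the nearest, against 0.58. For PLEK they were NES (0.57), MRPS11 (0.63) and ACOT7 (0.66), against 1.29, and for G0S2 SLC12A4 (0.62), S1PR2 (0.70) and ABL1 (0.71), against 1.30. Among themselves, CTSC and LAPTM5, CTSC and CYBB, and AIF1 and G0S2 lay on the same side of their group means in 8 of 11 pools. PLEK and G0S2 did so in 7, and PLEK and LAPTM5 in 1. PSTPIP2 and G0S2, CTSC and PLEK, and CTSC and G0S2 did so in 2, and the remaining pairs in 4 to 7. The 2 day 7 HE pools lie on opposite sides of their mean by construction, so the 11 pools are not independent and nothing is read from these counts.

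The blastocysts gave a readout that the choice of the genes did not use. Of the 9 probe sets 2 were kept there, PSTPIP2 and CTSC, among 11014 in all. PSTPIP2 read 6.88 and 7.44 in the HE pools and 5.78, 6.88 and 6.51 in the SE pools, so that the groups met at 6.88. It differed by -0.77 (standard error 0.40, limma adjusted p = 0.601), and by -0.47 without SE replicate 1. CTSC read 8.37 and 7.86 in HE and 7.93, 8.76 and 7.97 in SE, which overlap, a difference of 0.10 (standard error 0.34, limma adjusted p = 0.926) whose sign turned without HE replicate 2 (-0.15) or SE replicate 2 (-0.17). The 3′ to 5′ gap of the GAPDH control was larger in the SE blastocyst pools (5.47 to 5.85) than in the HE pools (4.97 and 5.11), and its part in these differences was not tested. The gaps of the EIF4E and cyclophilin controls overlapped between the HE and SE blastocyst pools. Neither PSTPIP2 nor CTSC passed the test, in which 0% of the kept probe sets did (0 of 11014, with 1029 at an unadjusted p under 0.05). LAPTM5 read 2.20 in all 5 pools, the lowest value of the blastocyst arrays, and G0S2 2.20 to 2.51. AIF1 read 2.59 to 3.35, PLEK 2.20 in 4 pools and 3.42 in SE replicate 3, and the CYBB probe sets 2.20 to 3.92 and 3.19 to 3.62. Of the leukocyte markers, 0 of 20 neutrophil and 1 of 19 macrophage genes (FCGR2B) were kept in blastocysts, and 2 of 16 pan-leukocyte genes, CD48 and RAC2. PSTPIP2 and CTSC were thus above the filter in pools with few leukocyte markers, so neither marks myeloid cells alone in these data.

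**Figure D5:**
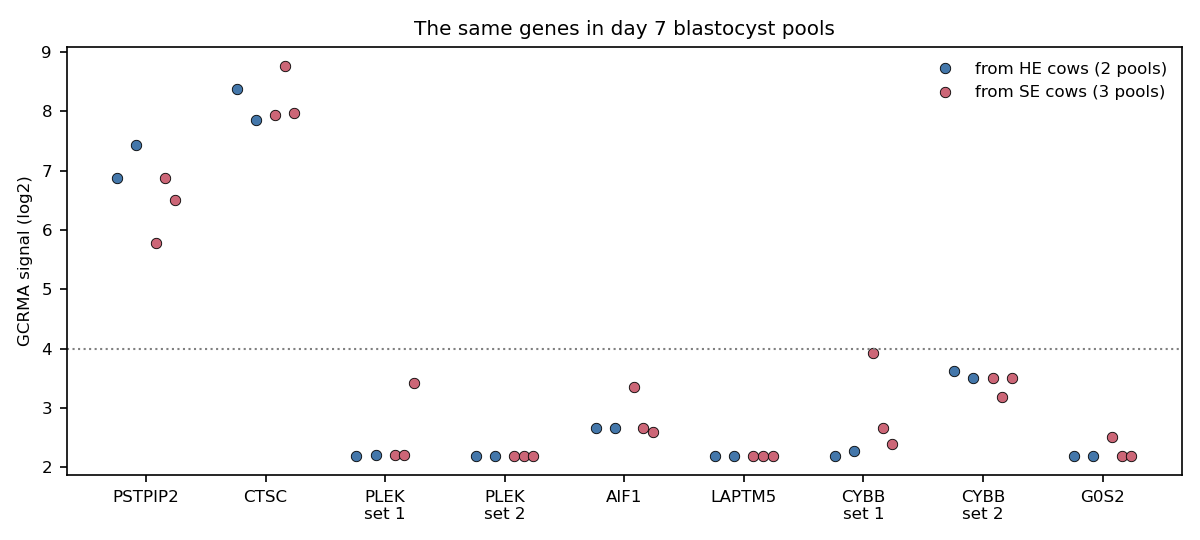
Log2 signal of the 9 probe sets in the 5 blastocyst pools (1 point a pool; blue, from HE cows; red, from SE cows; dotted line, the filter at 4). PSTPIP2 and CTSC lie above the filter in every pool, and the other 7 probe sets lie below it in every pool.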

How the data were processed

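RNA of 11 endometrial cytobrush pools and 5 blastocyst pools was amplified in 2 rounds from 15 ng, per the labels' protocols, and hybridised to Affymetrix bovine arrays. The deposited values are log2 signals that the authors made with GCRMA; GCRMA and limma are listed, without version or role, per the submitters' processing notes. Whether the tissues were normalized together is not stated in these sources, so no level was compared between them.

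Names came from the platform annotation, in which 13292 probe sets carry 1 symbol, 86 several and 10638 none; 112 controls were left out. All 7 genes matched RefSeq. In R 4.3.3, limma 3.58.1 was fitted to the 4 group means of all 11 endometrium arrays and separately to blastocysts, on probe sets above log2 4 in at least 2 arrays of the tissue. Tests were two-sided at an adjusted p of 0.05 (Benjamini-Hochberg over all kept probe sets) and were tested on simulated data. Figures used Python 3.11.15, pandas 2.3.3 and matplotlib 3.10.9.

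The 7 genes and the 15 gene lists were chosen with earlier results of these data known. A list gene was represented by its kept probe set of highest mean. Named genes were the 7, at most 4 called genes per list, contrast and direction (where 0 were called, the 2 largest differences) and the 3 nearest genes by profile distance. MPO, ELANE, ITGAM and the cathelicidins were named after their values were seen, as were the list genes given by their absence. Alternatives changed the filter, normalization, array weights, intensity trend, arrays in the fit, replicate block, gene summary or left out 1 pool. The number of arrays limits the precision.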

Additional observations from a re-analysis of the deposited data

Results flagged for a closer look

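CTSC stood out because its disease difference ran in opposite directions on the 2 days, with every SE pool above every HE pool on day 0 and below every HE pool on day 7. The SE minus HE difference on day 7 minus that on day 0 was -1.65 (standard error 0.31, log2). It was the only one of the 8 kept probe sets of the 7 genes with this pattern, which 119 of all 13421 kept probe sets show (0.887%). Among the 119 genes of the marker and partner lists that were kept, CDH1 and CLDN3, both of epithelial junctions, showed it too. Over all kept probe sets, limma's interaction of status and day called 0, CTSC included, with 526 at an unadjusted p under 0.05. No p is given for CTSC alone, since the gene was chosen with these comparisons known.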

How the results depend on the processing

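The differences of the 8 probe sets shifted by less than the pool spread in all 576 comparisons of a setting with the main fit. Leaving out 1 pool cannot shift a difference by more than that spread, and a change of the filter or the intensity trend does not shift it at all. Nothing is therefore read from this count. SE minus HE differences, none of them called, changed sign with single pools left out. On day 0 this held for PLEK, G0S2 and a CYBB probe set. On day 7 it held for AIF1, LAPTM5, that CYBB probe set and G0S2 (-0.002 to 2.64). AIF1 also changed sign with array weights, and LAPTM5 and CYBB with the replicate block. With no filter, probe sets called between SE and HE numbered 7 on day 0 and 10 on day 7, 1 of them PSTPIP2, and myeloid list genes called higher in HE on day 7 numbered 7. With only the groups compared in the fit, the day 0 count was 0, and myeloid list genes in SE numbered 5 higher and 3 lower. Array weights left 5 higher in SE. Leaving out single pools gave 0 to 11 calls on day 0, 0 to 2 on day 7, and myeloid list counts of 4 to 14 higher and 1 to 4 lower in HE and 5 to 15 higher and 3 to 6 lower in SE; the 15 came without day 7 SE replicate 3, the pool low in leukocyte markers. The blastocyst difference of CTSC reversed without HE replicate 2 (-0.15) and without SE replicate 2 (-0.17) and ran up to 0.36 over the single pools left out. The causes were not tested. Same-numbered pools did not deviate together (correlations -0.27 to 0.24 over 15 pairs, 2 above 0.1). Pools of the 2 days may share cows, and the labels do not tie replicate numbers to cows. The correlations therefore cannot show that the days are unpaired, and the main fit took all pools as independent. With the replicate number as a block, calls were 0 on day 0, 0 on day 7, 5408 in HE and 6380 in SE between the days, with 5 and 6 of the 8 probe sets called, and 0 in blastocysts.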
